A study of Homo sapiens with 2 samples.

Results

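Before a cell copies its DNA, each replication origin is licensed. The origin recognition complex, of which ORC1 is the largest subunit, binds the origin, and CDC6 and CDT1 then load the MCM helicase onto the DNA. In S phase the origin fires when CDC45 and the GINS complex, which includes GINS1 and GINS2, join MCM to form the active helicase. GMNN encodes geminin, which binds CDT1 and blocks a further round of loading. These genes are classic targets of the E2F family of transcription factors, which act at the G1/S transition. The 7 genes described here, CDC6, CDT1, ORC1, GINS1, GINS2, CDC45 and GMNN, were taken by name, and their E2F1 sites were all peaks that overlapped 2 kb on either side of a given hg19 start site. That gave 9 peaks of 28734 in the list, and all 7 genes had at least 1.

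The peaks came from chromatin immunoprecipitation and sequencing (ChIP-seq) of E2F1 in LNCaP-abl cells, a line of prostate cancer cells derived from LNCaP that grows without androgen. Cultures of passage 61 to 64 were kept in RPMI free of phenol red, with 10% serum that had been stripped by charcoal, and had no androgen for the last 3 days. Both samples of the series, the E2F1 immunoprecipitation made with a pair of antibodies and an input made with none, share this cell line and treatment. Only the E2F1 library has values here, so nothing below has a replicate, no value is set against input, and read depth is unknown. Each peak carries a score by the authors whose scale was not given in the sources used here. It is therefore given as it stands in the list and compared by rank, as the percentage of all peaks that score lower. The peak list measures binding and not RNA, so the labelled cell type was not checked against marker genes.

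E2F recognises short stretches that begin with T bases and end in G and C bases. The stretches below were picked because they hold such letters near a RefSeq start of each gene, so they cannot show how common the letters are. They are read from 5′ to 3′ in the direction of the gene and come from RefSeq with GRCh38.p14 coordinates, which were not set against the hg19 peaks. Capitals mark any of the 8-base forms TTTCCCGC, TTTGGCGC, TTTGCCGC, TTTCGCGC, TTTCCCGG, TTTGGCGG, TTTGCCGG and TTTCGCGG, or any of the forms ending in C without its first T (7-base forms), on either strand. The 6 longer ones are the 100 bases just before the start, and those of CDC6 and GINS1 across the start are 30 bases long. Where a gene has several RefSeq starts, they are numbered in the direction of the gene, and the one with such letters is shown. The 100 bases before the start of GINS1, starts 1 and 2 of CDC45 and start 1 of GMNN hold none and are left out.
CDC6 before the start, chr17:40287779-40287878, plus strand: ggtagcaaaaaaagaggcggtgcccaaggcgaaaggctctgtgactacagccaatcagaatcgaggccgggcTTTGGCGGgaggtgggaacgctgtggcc
CDC6 across the start, chr17:40287875-40287904, plus strand: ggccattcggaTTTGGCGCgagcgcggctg
CDT1, chr16:88803689-88803788, plus strand: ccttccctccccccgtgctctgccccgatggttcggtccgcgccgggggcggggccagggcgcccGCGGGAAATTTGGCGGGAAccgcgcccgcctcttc
ORC1, chr1:52404424-52404523, minus strand: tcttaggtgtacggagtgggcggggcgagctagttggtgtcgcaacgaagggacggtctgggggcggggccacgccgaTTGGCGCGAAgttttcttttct
GINS2, chr16:85688955-85689054, minus strand: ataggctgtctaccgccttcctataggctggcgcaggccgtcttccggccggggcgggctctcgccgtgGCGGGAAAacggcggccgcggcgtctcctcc
GINS1 across the start, chr20:25407667-25407696, plus strand: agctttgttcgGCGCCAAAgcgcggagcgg
CDC45 at start 3, chr22:19479820-19479919, plus strand: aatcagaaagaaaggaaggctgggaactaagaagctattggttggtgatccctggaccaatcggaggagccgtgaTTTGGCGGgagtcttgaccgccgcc
GMNN at start 2, chr6:24775313-24775412, plus strand: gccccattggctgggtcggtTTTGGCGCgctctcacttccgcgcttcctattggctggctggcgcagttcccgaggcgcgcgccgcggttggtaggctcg

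The start site lay inside a peak at all 7 genes. Genome-wide, 3.93% of 749111 windows of 4001 bp, tiled between the outermost peaks of chromosomes 1 to 22, X and Y, overlapped a peak. This share compares with the 7 genes that had a peak in their window, and not with a start site inside a peak. These windows are a background of the genome and not of promoters, and assembly gaps were not left out of them. The share of all promoters with a peak was not analysed here. The highest peak of each gene was also in the top 10% of the list by score, at 109.6 or more, where 10.0% of all peaks stand by construction. Among windows, 0.460% overlapped such a peak. CDC6, GINS2, GINS1 and GMNN reached the top 1% of peaks, which held 0.999% of the list. The median score of the 7 peaks was 243, against 23.5 over all peaks, and the highest score of the list was 333. Each of the 7 is the highest peak of a start-site window, while the list is not limited to start sites. The difference was thus not shown to be particular to these genes. No test was made, because there is 1 library and the genes were chosen for their function with earlier results of these data known.

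Among the licensing factors, CDC6, the ATPase that works with the origin recognition complex to load MCM, had the highest score of the 7 genes. Its peak on chromosome 17 from 38443714 to 38444453 (hg19, as all peak positions) scored 275, above 99.8% of all peaks, and ranked 61 of 28734. Only 3 peaks of the 1624 on chromosome 17 scored higher. The peak was 740 bp wide and reached 432 bp upstream and 307 bp downstream of the start site at 38444146.

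CDT1, which brings MCM to the origin, stood lower. Its peak on chromosome 16 from 88869806 to 88870595 scored 182, above 97.4% of all peaks, and ranked 755. It was 790 bp wide, and its middle lay 14.5 bp downstream of the start site at 88870186. Among the 1184 peaks of chromosome 16 it ranked 28.

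ORC1, the subunit of the origin recognition complex whose level cycles in human cells, had the lowest score and the widest peak of the 7 genes. The peak on chromosome 1 from 52869366 to 52870664 scored 116, above 91.3% of all peaks. An exact 95% interval of 90.9 to 91.6% treats the complete list as a sample and covers counting error only. It gives no spread between libraries. It ranked 2513 in the list and 276 of the 2962 peaks on chromosome 1. It was 1299 bp wide, wider than 98.6% of all peaks, and reached 521 bp upstream and 777 bp downstream of the start site at 52870143. In the RefSeq promoter table the nearest start of another gene belongs to PRPF38A, a splicing factor gene on the opposite strand, 179 bp away. A peak over such a shared promoter cannot be given to ORC1 or to PRPF38A from its position.

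The GINS subunits had nearly the same score, though they lie on different chromosomes. The GINS2 peak on chromosome 16 from 85722200 to 85723023 scored 259 and ranked 114, and the GINS1 peak on chromosome 20 from 25387974 to 25388700 scored 258 and ranked 124. Without a replicate, these neighbours in rank cannot be told apart. The peaks were 824 bp wide at GINS2 and 727 bp wide at GINS1, and their middles lay 23.5 bp upstream and 14 bp downstream of the start sites at 85722588 and 25388323. GINS1 held the highest score of all 835 peaks on chromosome 20. GINS2 held the fifth highest on chromosome 16, where it lies 3.15 Mb from CDT1.

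CDC45, the partner of GINS in the active helicase, had 3 peaks in its window, while the other 6 genes had 1 each. The peak over its start site on chromosome 22, from 19467050 to 19467683, scored 152, above 95.5% of all peaks, and ranked 1301. It was also the narrowest of the 7, at 634 bp. A second peak from 19466530 to 19466891 scored 51.1, above 70.1% of all peaks, and ended 523 bp upstream of the start site at 19467414, with 159 bp between it and the main peak. The farthest peak, from 19465239 to 19465569, scored 49.98, above 69.4%, and crossed the edge of the window, since 175 of its 331 bp lay beyond 2 kb. The gene before CDC45 in RefSeq gene order is UFD1, which is known to be transcribed the other way. Where UFD1 starts was not set against the peaks. The peaks upstream of CDC45 thus cannot be given to CDC45 or to UFD1 from their position. The list has no summits, so single or joined enrichment across these upstream peaks cannot be told apart.

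GMNN, the inhibitor of licensing in the set, scored close to the GINS subunits. Its peak on chromosome 6 from 24774955 to 24775955 scored 243, above 99.3% of all peaks, and ranked 206. It was 1001 bp wide and lay off centre, reaching 701 bp downstream but 299 bp upstream of the start site at 24775254. Its middle was 201 bp downstream, the largest offset of the 7. RefSeq lists GMNN starts 476 bp apart, and the E2F-type form was found before the second of them.

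By score the order was thus CDC6, GINS2, GINS1, GMNN, CDT1, CDC45 and ORC1. In this order the licensing loaders CDC6 and ORC1 stood at the ends, and the firing factors GINS2 and CDC45 were 4 places apart. A relation of score to role was not tested, with only 7 genes in a single library. The ORC1 peak also lies over the promoter shared with PRPF38A. The peak map shows that the 7 main peaks all spanned the start site, and that 5 of them had their middle within 100 bp of it.

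**Figure D1:**
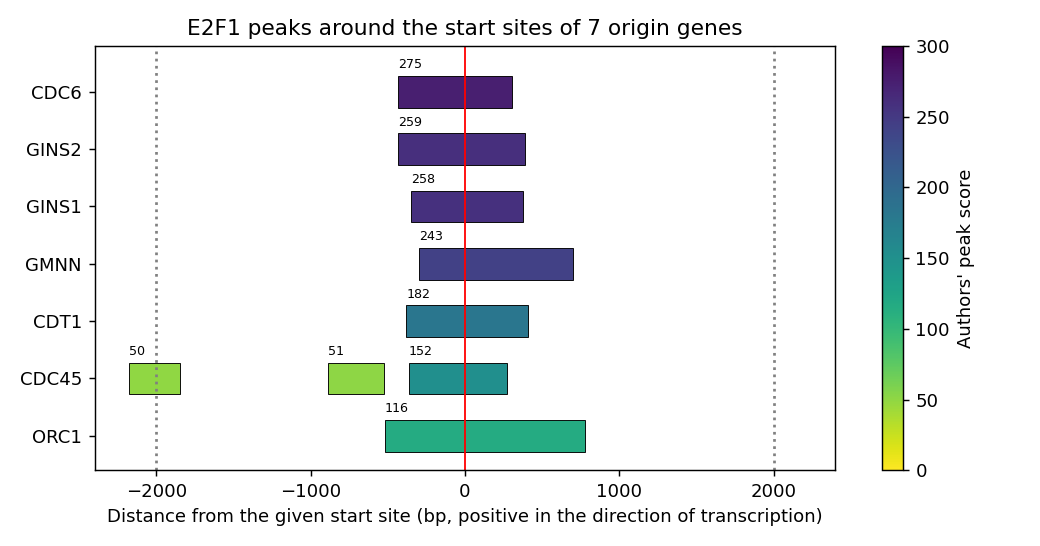
E2F1 peaks (boxes, coloured and labelled by the authors' score) by distance in bp from the given start site (red line), oriented by transcription, for the 7 genes from highest to lowest score, with dotted lines at 2 kb. All 7 main peaks span the start site, the ORC1 peak is the widest at 1299 bp, and CDC45 has weaker peaks upstream that score 51.1 and 49.98.

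Score and width come from the same peak calls, so each gene's peak was also ranked among peaks whose width was within 10% of its own. The median score of these sets was 60.8 for CDC45, the narrowest of the 7 peaks, and lay between 70.0 and 74.6 for the other 6, with 70.7 for ORC1, so it did not keep rising at the larger widths. The 7 main peaks had a median width of 790 bp, against 418 bp over all peaks and 764 bp in the top 10% by score. Among peaks of like width, CDC6 was still above 98.9% of 3024, GINS2 above 98.4% of 2790, GMNN above 98.3% of 1970 and GINS1 above 98.0% of 3053. CDT1 was above 90.4% of 2940 and CDC45 above 90.1% of 2976. ORC1 was above 78.4% of 621 peaks. Among peaks of its width, then, ORC1 had the lowest rank of the 7, while the other 6 stood above at least 90.1% of theirs.

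**Figure D2:**
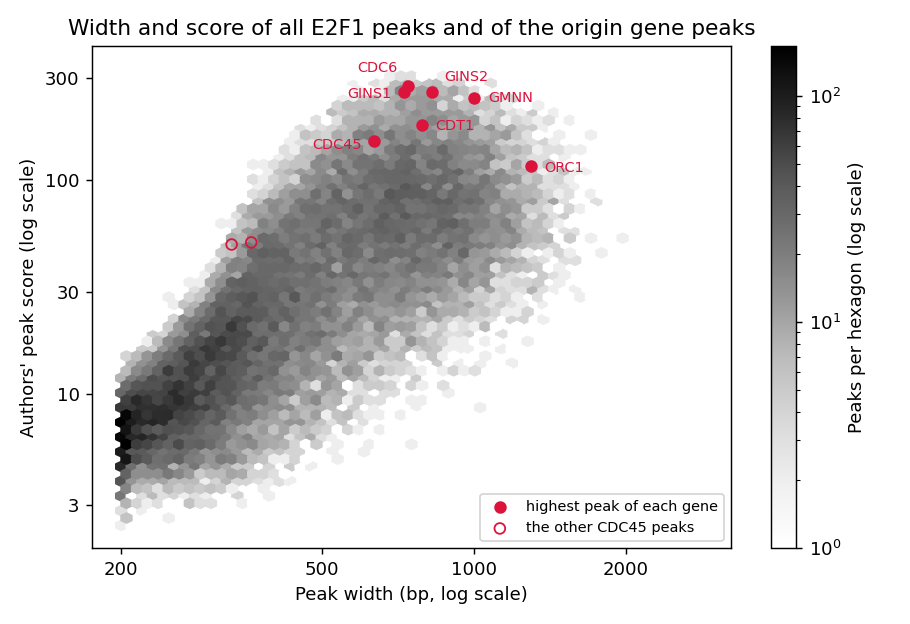
Width in bp (x axis, log scale) against the authors' score (y axis, log scale) for all 28734 peaks as grey hexagons. Filled red points are the highest peak of each of the 7 genes, and open circles the other peaks in the CDC45 window. CDC6, GINS1, GINS2 and GMNN sit at the upper edge, and ORC1 lies far to the right at 1299 bp with a score of 116.

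Within 50 kb of the 7 start sites there were 24 peaks, and at each gene the highest was the one over the start. The 15 peaks outside the windows had a median score of 29.0 and a highest score of 112, and 2 of them were in the top 10% of the list. GMNN had no other peak within 50 kb, and the nearest lay 52991 bp from its own. CDC6 had a single further peak, 29747 bp away and with a score of 51.5, and GINS2 a single one, 14105 bp away and with a score of 28.4.

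CDT1 lay in the fullest surroundings, with 8 peaks within 50 kb. Outside its window, 5 peaks more than 30 kb upstream scored between 4.38 and 21.8. APRT, the gene for a purine salvage enzyme, follows CDT1 in gene order, and in RefSeq their starts lie 8139 bp apart. A wide peak of 1612 bp with a score of 56.5 ran from 7588 to 9199 bp downstream of the CDT1 start. It was the nearest peak of any of the 7 genes outside the windows. GINS1 had a strong upstream neighbour that ended 16357 bp before its start. It scored 109.65, at the edge of the top 10%. In RefSeq the start of ABHD12, on the opposite strand, lies 16838 bp from that of GINS1. CDC45 had a neighbour with a score of 112, which ended 31762 bp upstream. In RefSeq the start of C22orf39, on the opposite strand, lies 31755 to 32209 bp from the CDC45 starts. These neighbouring peaks thus cannot be given to GINS1 or CDC45 from their position. At ORC1 a peak of 1129 bp, 37804 bp downstream of the start, scored 93.9, above 86.6% of all peaks, so the 116 at the ORC1 start was not far above it.

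**Figure D3:**
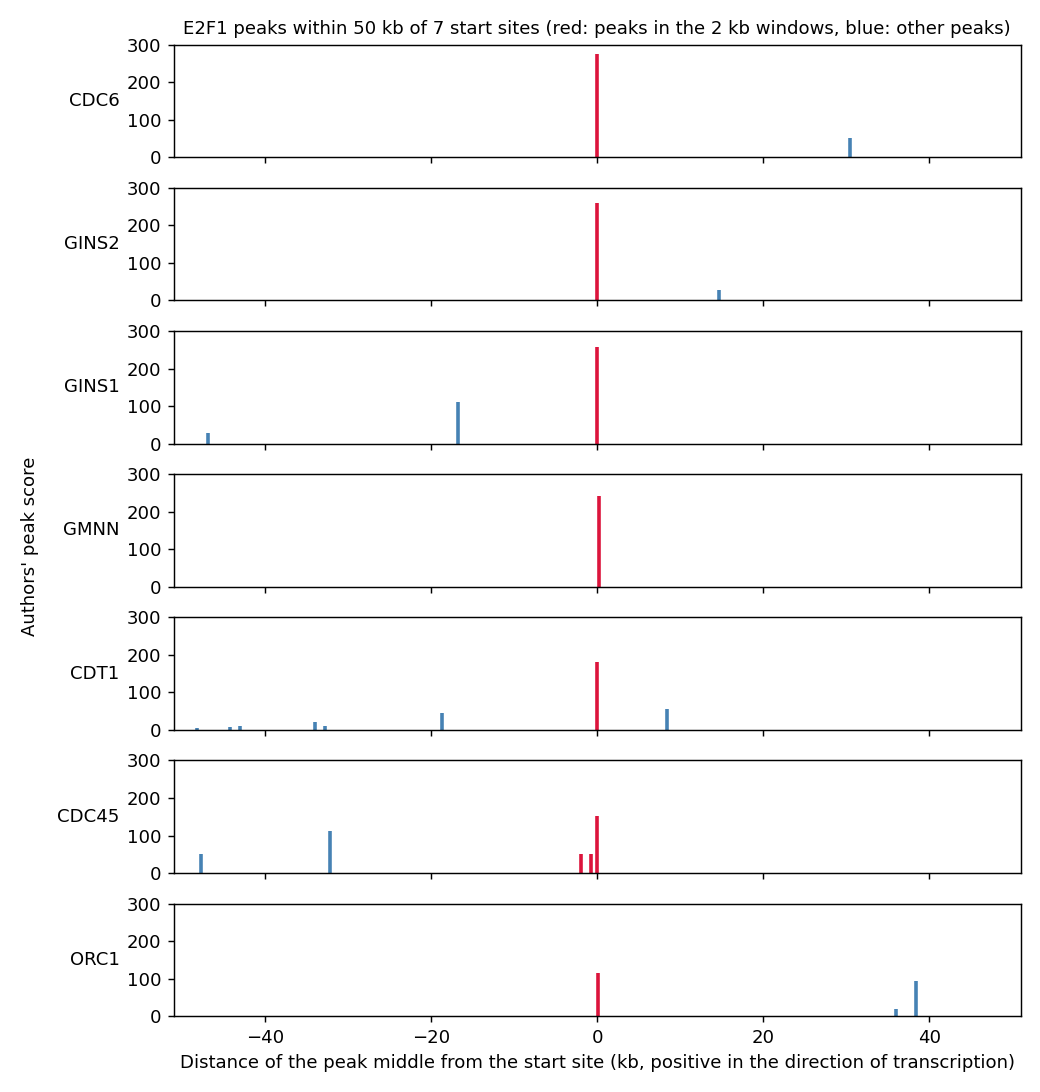
Score of every peak (y axis, authors' score) by the distance of its middle from the start site in kb (x axis), within 50 kb of each of the 7 genes, with peaks in the windows in red and the others in blue. The red line at the start is the tallest in every panel, GMNN has no other peak, and CDT1 has the most, 8 in all.

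On a wider scale of 5 Mb on either side, GINS1 was the highest of 96 peaks and GINS2 the highest of 191. CDC6 ranked 3 of 288, GMNN 3 of 204, CDT1 4 of 164, CDC45 8 of 150 and ORC1 12 of 123. The median score in these regions ran from 15.1 around GINS1 to 37.0 around CDC45. The 5 Mb regions of CDT1 and GINS2 overlap, so these ranks share peaks.

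All 7 genes held E2F-type letters (a form of either length) in a promoter, against 17.9% of all genes and 23.9% of protein-coding ones. No single class of forms was found in all 7. The genes are known targets of E2F, so such letters are not independent of their choice. All 7 matched the RefSeq table, with 10 entries in all, since CDC45 has 3 starts and GMNN has a pair. Of the 7, 5 held at least 1 of the 4 forms that end in C (TTTCCCGC, TTTGGCGC, TTTGCCGC or TTTCGCGC) in the 300 bases from 250 before to 50 after a start. Of all 27305 genes with an entry, 3.99% held one, and 5.40% of 15843 protein-coding genes. CDC6, GINS1 and GMNN held TTTGGCGC, which 0.795% of genes had, and CDT1 and GINS2 held TTTCCCGC, which 1.98% had, on the strand opposite to the gene.

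CDC45 and ORC1, the lowest by score, were the genes without any of these 4 forms. CDC45 held TTTGGCGG before its start 3, a form also found in CDC6 and CDT1 and in 0.809% of all genes. ORC1 held the 7-base forms TTGGCGC along the gene and TTCGCGC on the opposite strand, which overlap each other. The 7-base forms were found in 6 of the 7 genes, all but CDC45, against 15.3% of all genes and 20.5% of protein-coding ones. With forms ending in G added, after the promoter letters had been seen, 6 of the 7 genes had an 8-base form, against 7.43% of all genes and 9.99% of protein-coding ones. A match of letters is a description and does not show that E2F1 binds there, and 7 genes are too few to relate letters to score.

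The forms lay close to the start. In 6 of the 7 genes a form of either length lay within 40 bases of a RefSeq start, against 6.55% of all genes and 8.85% of protein-coding ones. These shares include genes with no form. Among the 4891 genes with a form, 36.6% had one this near, and among the 3783 protein-coding ones 37.1%. Of the 11 other licensing and firing genes with a form, 9 (81.8%) had one this near. Counting the first transcribed base as 1, CDC6 had TTTGGCGG from -28 to -21 and TTTGGCGC from 8 to 15. CDT1 had its forms between -35 and -17, GINS2 from -31 to -24, CDC45 from -25 to -18 and ORC1 from -22 to -13. GINS1 had TTTGGCGC on the opposite strand from 6 to 13. GMNN was the exception, with TTTGGCGC from -80 to -73 of its second start. The distance of 40 bases was chosen after these positions had been seen.

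**Figure D4:**
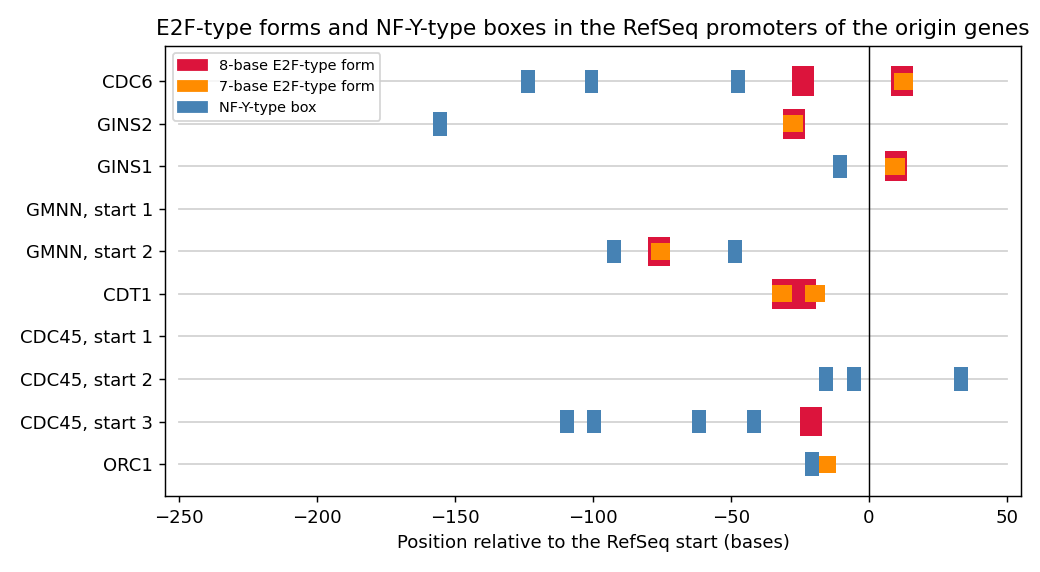
Position of E2F-type forms of 8 bases (red) and 7 bases (orange) and of CCAAT boxes, named by their factor NF-Y (blue), relative to each RefSeq start in bases, in the 10 promoter entries of the 7 genes, ordered by peak score. The forms crowd within 40 bases of the start in every gene but GMNN, and 3 entries hold either none of these letters or CCAAT alone.

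CCAAT boxes, the site of the factor NF-Y, were present in the promoters of 6 of the 7 genes, all but CDT1, against 39.7% of all genes and 42.1% of protein-coding ones. CDC6 had 3 of them in its single entry and the entry of CDC45 at start 3 had 4. In ORC1 the CCAAT box on the opposite strand shared bases with the E2F-type form. The forms TTTGAA and TTCGAA, known as CHR elements of genes that peak later in the cell cycle, were in none of the 7. They were in 19.5% of all genes and 17.5% of protein-coding ones, so with only 7 genes this count is near the background. The number of CpG dinucleotides varied among the promoters. CDT1 had 47 in 300 bases and GINS2 had 43, while CDC6 had 23 and ORC1 and GINS1 each had 24, against a median of 21 over protein-coding entries. CDC45 had 16, 11 and 23 at its 3 starts, and GMNN had 23 and 33, so some entries lay below that median.

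Of 22 other genes of licensing and firing, 16 matched the promoter table, and no hg19 start sites were used for them, so only their letters are described. In this list, 8 of 16 held 1 of the 4 forms ending in C, against 3.99% of all genes. They were MCM2, MCM3, MCM6 and MCM7 of the helicase, GINS3, ORC3, the kinase gene CDC7 and TOPBP1. CCAAT was found in 8 of the 16, against 39.7% of all genes, and a CHR form in 2, DBF4 and MCM6, against 19.5%, and both counts are near the background.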

How the data were processed

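One deposited peak list of an E2F1 ChIP-seq library was used. The submitters' processing notes name hg19, MACS2 2.0.9, CASAVA 1.6.0 and Bowtie, with settings, peak threshold and any use of the input not given in the sources used here. As for the score deposited by the authors, its scale is unknown here, and it was used only within the list, to describe and rank peaks. Read depth is unknown.

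The 7 genes, their hg19 start sites and the window were given, and could not be checked against an hg19 annotation here. Members and lists were chosen with earlier results of these data known. Peaks were taken as 0-based BED intervals, overlap was at least 1 bp, and the highest-scoring peak stood for a gene. Percentiles are the share of 28734 peaks with a lower score. All 7 genes are named. Promoters and gene order came from RefSeq (GRCh38.p14), whose coordinates were never joined to peaks, and strand was taken from there too. Window overlap, percentiles and letter searches were tested on simulated data. Python 3.11.15, pandas 2.3.3, numpy 2.4.6, scipy 1.17.1 and matplotlib 3.10.9 were used. Alternatives were other windows, overlaps, score thresholds, sets to rank against and letters. With 1 library, no test between groups was made.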

Additional observations from a re-analysis of the deposited data

How the results depend on the processing

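All 7 genes kept a peak with windows of 500 bp, 1 kb and 5 kb, with the start site inside the peak, with at least 50% of the peak in the window, and with only the top 50% or the top 10% of peaks. The median percentile of 99.3 was 99.03 among peaks of the same chromosome, 98.0 among peaks of like width, 98.5 among peaks within 5 Mb and 83.1 when ranked by width in place of score. It stayed at 99.3 for the peak nearest to the start and without mitochondrial peaks, the latter chosen after seeing the data. Of 7 promoters, 5 held a form ending in C, and 3 did when only bases before the start were searched (3.40% of all genes and 4.60% of protein-coding ones), since the forms of CDC6 and GINS1 lie after it. The count was 6 with 7-base forms. No paired analysis was possible because there is a single library with values. Leaving out a replicate was likewise not possible, and what depth limits is unknown.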
